A study of Mus musculus with 15 samples.

Results

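The beta-defensin genes of the mouse were examined in gonadal white adipose tissue of wild-type and Sfrp5 KO mice. A gene was taken as a member when its symbol in the platform annotation was Defb followed by a number and its probe set carried no other symbol. This gave 40 genes, each measured by 1 probe set, among 19938 genes named in the same way on the array. The mice were C57BL6/J males, 7 wild type and 8 Sfrp5 KO with the allele Q27Stop, a stop codon placed in the gene of a secreted Wnt-binding protein. Every animal, wild type included, ate a high-fat diet from 4 weeks of age for 8 weeks, and tissue was collected at 12 weeks. Each mouse gave 1 Affymetrix array. The tissue is the fat pad that lies against the epididymis and testis, so total RNA from it can hold transcripts of neighbouring organs. Since the RNA is from bulk tissue, fewer cells of a type and less RNA per cell cannot be told apart in any value below.

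Beta-defensins are small, positively charged secreted peptides folded around conserved disulphide bridges. Some, such as Defb1, Defb3, Defb4 and Defb14, are made by epithelia of skin, airway, gut or urinary tract and act against microbes, and several of these are induced by infection or inflammation. Many others are made by the epithelium of the epididymis, each in its own stretch of the duct, under the influence of androgens and factors from the testis. There they are secreted onto maturing sperm and form part of the sperm coat. The genes lie in clusters, and 4 chromosomes carry the 40 members, with 3 on chromosome 1, 11 on chromosome 2, 21 on chromosome 8 and 5 on chromosome 14.

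Most members that stood out did so in the array of Sfrp5 KO mouse 2 or that of wild-type mouse 4, and 21 of the 40 were raised in at least 1 of these by the margin given below. The upstream sequences of the 3 members with the largest rise in each of these arrays, among members that have an entry, are therefore shown. RefSeq promoter entries of GRCm38.p6 were found for 28 of the 40 members. Each sequence is the 250 bases before the annotated start, 5′ to 3′ on the gene's strand. Capitals mark TGTTCT or its reverse complement AGAACA, the letters of an androgen receptor half-site, and TATAAA or its reverse complement TTTATA, the letters of a TATA box. The first 3 belong to members raised in Sfrp5 KO array 2, Defb48 at chr14:62984511-62984760 (minus strand), Defb41 at chr1:18265139-18265388 (minus strand) and Defb47 at chr14:62997827-62998076 (plus strand). The last 3 belong to members raised in wild-type array 4, Defb28 at chr2:152518005-152518254 (plus strand), Defb22 at chr2:152490139-152490388 (minus strand) and Defb38 at chr8:19026569-19026818 (minus strand).
Defb48: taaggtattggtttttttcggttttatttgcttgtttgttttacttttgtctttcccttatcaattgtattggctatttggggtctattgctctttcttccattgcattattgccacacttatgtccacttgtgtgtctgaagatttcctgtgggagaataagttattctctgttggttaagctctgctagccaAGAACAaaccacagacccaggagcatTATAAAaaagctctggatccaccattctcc
Defb41: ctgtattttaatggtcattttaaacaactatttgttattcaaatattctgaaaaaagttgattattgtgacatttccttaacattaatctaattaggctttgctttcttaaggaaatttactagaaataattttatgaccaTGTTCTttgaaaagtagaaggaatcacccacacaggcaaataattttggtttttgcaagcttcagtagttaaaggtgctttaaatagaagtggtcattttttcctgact
Defb47: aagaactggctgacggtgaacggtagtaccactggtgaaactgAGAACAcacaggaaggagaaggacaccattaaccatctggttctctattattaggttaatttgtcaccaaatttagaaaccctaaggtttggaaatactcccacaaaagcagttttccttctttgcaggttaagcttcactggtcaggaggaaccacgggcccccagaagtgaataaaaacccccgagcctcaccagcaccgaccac
Defb28: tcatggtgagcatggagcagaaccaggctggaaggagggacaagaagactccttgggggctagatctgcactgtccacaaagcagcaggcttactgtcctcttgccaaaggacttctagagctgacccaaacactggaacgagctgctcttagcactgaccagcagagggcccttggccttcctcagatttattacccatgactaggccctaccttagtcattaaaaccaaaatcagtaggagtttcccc
Defb22: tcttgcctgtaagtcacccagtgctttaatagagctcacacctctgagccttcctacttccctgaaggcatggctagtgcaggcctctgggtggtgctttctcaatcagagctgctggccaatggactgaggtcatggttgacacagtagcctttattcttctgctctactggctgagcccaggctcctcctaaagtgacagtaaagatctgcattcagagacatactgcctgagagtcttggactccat
Defb38: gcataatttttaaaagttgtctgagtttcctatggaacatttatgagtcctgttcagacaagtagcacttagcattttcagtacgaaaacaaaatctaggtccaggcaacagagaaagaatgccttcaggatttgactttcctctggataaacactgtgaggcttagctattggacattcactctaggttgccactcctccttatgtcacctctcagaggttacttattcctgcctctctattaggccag

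The half-site letters lie 56 bases before the start in Defb48, 109 bases in Defb41 and 207 bases in Defb47, and Defb48 also has TATAAA 30 bases before its start. Neither motif is in the windows of Defb28, Defb22 and Defb38. Over all members with an entry, 14 of 28 windows (50%) held TGTTCT on either strand, against 5284 of 32851 windows of the same length in the whole table (16.1%). The share was 1 of 3 among members raised in Sfrp5 KO array 2 alone, 5 of 9 among those raised in wild-type array 4 alone, 2 of 3 among those raised in both and 6 of 13 among those raised in neither. TATAAA was in 5 of 28 windows (17.9%), against 12.4% of all windows. The windows of the members had a median GC content of 47.6%, against 52.4% over the table. In these comparisons each member counted once, by its first entry, whereas every entry of the table counted in the whole. A match is a description of letters and not of a bound site, and clustered paralogs share sequence, so the windows are not independent of each other.

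Across the 15 arrays the median over probe sets lay between 6.99 and 7.07, and pairs of arrays correlated across probe sets at 0.963 to 0.987. The mean of 11 adipocyte genes was 11.84 to 12.16 in every array, including 11.90 in Sfrp5 KO array 2 and 11.95 in wild-type array 4. The mean of 22 measured epididymis secretory genes, none of them a beta-defensin, was 9.74 in Sfrp5 KO array 2 and 7.92 in wild-type array 4, against 5.73 to 6.51 in the other 13 arrays. Sfrp5 itself was lower in the knockout arrays, at 6.02 to 7.12 against 7.66 to 8.33 in wild type, which is -1.23 on the log2 scale (SE 0.16; limma with Benjamini-Hochberg adjustment, adjusted p = 0.0200; exact two-sided permutation p = 0.000155, the smallest its 6435 splits allow). Without the 2 arrays with high epididymis genes the limma adjusted p of Sfrp5 was 0.119. All values here are RMA log2 values per probe set, and because probe sets differ in brightness at equal transcript level, levels are compared between arrays for 1 gene and not between genes.

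Most beta-defensins were dim outside these 2 arrays. A gene was called dim where it lay below the median of all probe sets of its array, and 31 of the 40 members were dim in each of the other 13 arrays. The share of named genes dim in those 13 arrays was not counted, so the count of 31 has no background and describes the members alone. Dim in every array of all 15, a different set of arrays, were 32.5% of members and 35.4% of named genes. In wild-type array 4, 16 members (40%) lay at least 1 log2 unit above the highest of those 13 arrays, a margin met there by 0.677% of named genes. In Sfrp5 KO array 2 it was met by 9 members (22.5%) and by 0.446% of named genes. These margins compare 1 array with the rest and carry no test. The members made up 11.9% of the 135 genes raised in wild-type array 4 and 10.1% of the 89 raised in Sfrp5 KO array 2. There were 4 members raised in both arrays (0.12% of named genes), 12 raised in wild-type array 4 alone, 5 raised in Sfrp5 KO array 2 alone and 19 raised in neither. For the single-array classes the shares of named genes are at most the 0.677% and 0.446% above. Raised in neither means that the margin was missed. Defb30, in that class, read 8.23 in Sfrp5 KO array 2 and 7.74 in wild-type array 4, against a median of 7.10 over the 13. Defb15 read 7.41 in wild-type array 4 against 6.38. For both genes the highest of the 13 was Sfrp5 KO array 6, at 8.69 and 7.52. Epididymis genes such as Lcn5 (9.36) were also high in that array. The next highest of the 13 was 7.20 for Defb30 and 6.57 for Defb15. The class of Defb30 thus rests on Sfrp5 KO array 6, and the classes were not recounted without it. For 29 of 40 members the highest of the 15 arrays was wild-type array 4 (17 members) or Sfrp5 KO array 2 (12 members). Of named genes, 9.42% had their highest value in wild-type array 4 and 7.35% in Sfrp5 KO array 2.

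**Figure D1:**
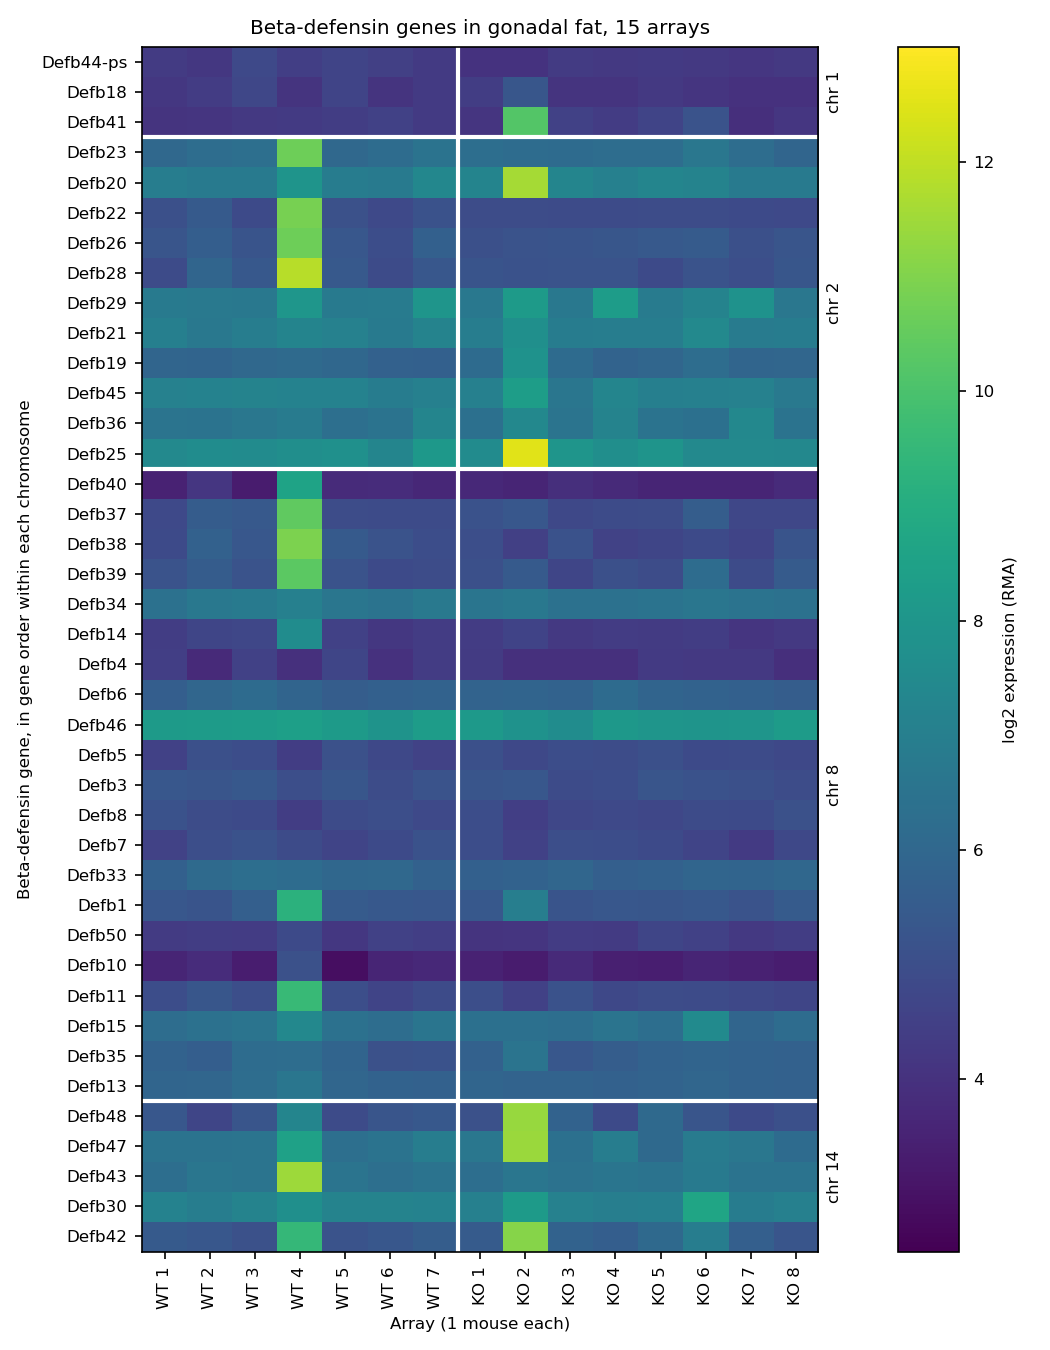
RMA log2 values of the 40 beta-defensin genes (rows, in gene order within each chromosome) in the 15 arrays (columns, 7 wild type and 8 Sfrp5 KO), with brighter signal as in the colour bar. Raised values sit in the columns of wild-type array 4 (16 genes) and Sfrp5 KO array 2 (9 genes), and among the remaining columns Sfrp5 KO array 6 is brighter for Defb30 (8.69) and Sfrp5 KO array 4 for Defb29 (8.30).

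The 5 members raised in Sfrp5 KO array 2 alone were Defb41 on chromosome 1 and Defb20, Defb19, Defb45 and Defb25 on chromosome 2. Defb41 (probe set 10353336), described from the epididymis, read 4.08, 4.29 and 4.51 as the lowest, median and highest of the wild-type arrays and 3.90, 4.44 and 10.19 in the knockout arrays. The value of 10.19 came from array 2, and the next array, Sfrp5 KO array 6, read 5.18. The rise over the median of the other 13 arrays was 5.90 log2 units, or 59.8-fold, while wild-type array 4 read 4.30, at the level of the rest. Its window, shown above, is the one with the lowest GC content of the 6 at 28.4%.

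Defb25 (probe set 10488652) stood out in the same array. Its wild-type arrays read 7.28 at the lowest, 7.62 at the median and 8.12 at the highest, and its knockout arrays 7.41, 7.62 and 12.51. The value of 12.51 in Sfrp5 KO array 2 was at the 98.96th percentile of that array's probe sets and 4.39 above the highest of the other 13 arrays, and wild-type array 4 read 7.69. Defb20 (probe set 10477122) read 6.78, 6.90 and 7.95 in wild type and 6.81, 7.23 and 11.59 in the knockout. Its highest wild-type value was that of array 4, which missed the margin, at 0.58 above the highest of the 13. Defb19 reached 7.83 in Sfrp5 KO array 2 against 5.74 to 6.25 in the 13 arrays, and Defb45 reached 8.36 against 6.61 to 7.27. With a rise of 1.09 Defb45 was just inside the margin, and Defb18, at 5.29 and a rise of 0.58, was the nearest member outside it. Of these 5 members, Defb20, Defb25 and Defb45 were above the array median in some of the other 13 arrays too.

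On chromosome 14, Defb48, Defb47 and Defb42 were raised in both arrays. Defb48 (probe set 10420721) read 4.70, 5.29 and 7.27 as the lowest, median and highest in wild type and 4.86, 5.18 and 11.39 in the knockout. The highest wild-type value was that of array 4 and the highest knockout value that of array 2. Defb47 read 8.53 in wild-type array 4 and 11.44 in Sfrp5 KO array 2, against 6.07 to 6.95 in the 13 arrays. Defb42, an epididymal beta-defensin studied for its part in sperm function, read 9.50 and 11.08 there, against 5.11 to 6.97. For these 3 genes Sfrp5 KO array 2 was the higher of the 2 arrays. The fourth gene raised in both, Defb1 on chromosome 8, had the opposite order, with 9.25 in wild-type array 4 and 6.98 in Sfrp5 KO array 2, against 5.20 to 5.70. Defb1 encodes a beta-defensin that kidney and other epithelia make without induction.

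The 12 members raised in wild-type array 4 alone were Defb23, Defb22, Defb26 and Defb28 on chromosome 2, Defb43 on chromosome 14 and Defb40, Defb37, Defb38, Defb39, Defb14, Defb10 and Defb11 on chromosome 8. Defb28 (probe set 10477125) had the largest rise of the family, with 4.90, 5.38 and 11.89 as the lowest, median and highest in wild type and 4.85, 5.19 and 5.30 in the knockout. The value of 11.89 lay 6.69 above the median of the 13 arrays, or 103-fold, whereas Sfrp5 KO array 2 read 5.15. Defb22 (probe set 10488633), which encodes a glycoprotein of the sperm surface, read 4.82, 5.10 and 10.84 in wild type and 4.83, 4.91 and 4.95 in the knockout. Defb43 (probe set 10415835) read 6.30, 6.53 and 11.47 in wild type and 6.30, 6.50 and 6.78 in the knockout. Array 4 alone held the high value in each of these 3 genes. Defb23 reached 10.67 and Defb26 10.69 in array 4, against 5.93 to 6.67 and 4.97 to 5.73 in the 13 arrays.

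The cluster Defb40, Defb37, Defb38 and Defb39, consecutive members on chromosome 8, were all raised in wild-type array 4. Defb38 (probe set 10577343) read 4.86, 5.36 and 10.94 as the lowest, median and highest in wild type and 4.48, 4.76 and 5.22 in the knockout. Its value in Sfrp5 KO array 2, 4.48, was the lowest of all 15 arrays. Defb37 reached 10.43, Defb39 10.37 and Defb40 8.60 in wild-type array 4, against highest values of 5.58, 6.22 and 4.16 in the 13 arrays. Further along the chromosome, Defb11 reached 9.57 against 4.65 to 5.30. Defb14, an inducible antimicrobial member of skin and airway, reached 7.61 against 4.11 to 4.73. Defb10 rose to 5.12 from 2.90 to 3.84 and still lay below the array median. Whether probes of these closely related genes also bind a paralog's transcript was not tested.

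**Figure D2:**
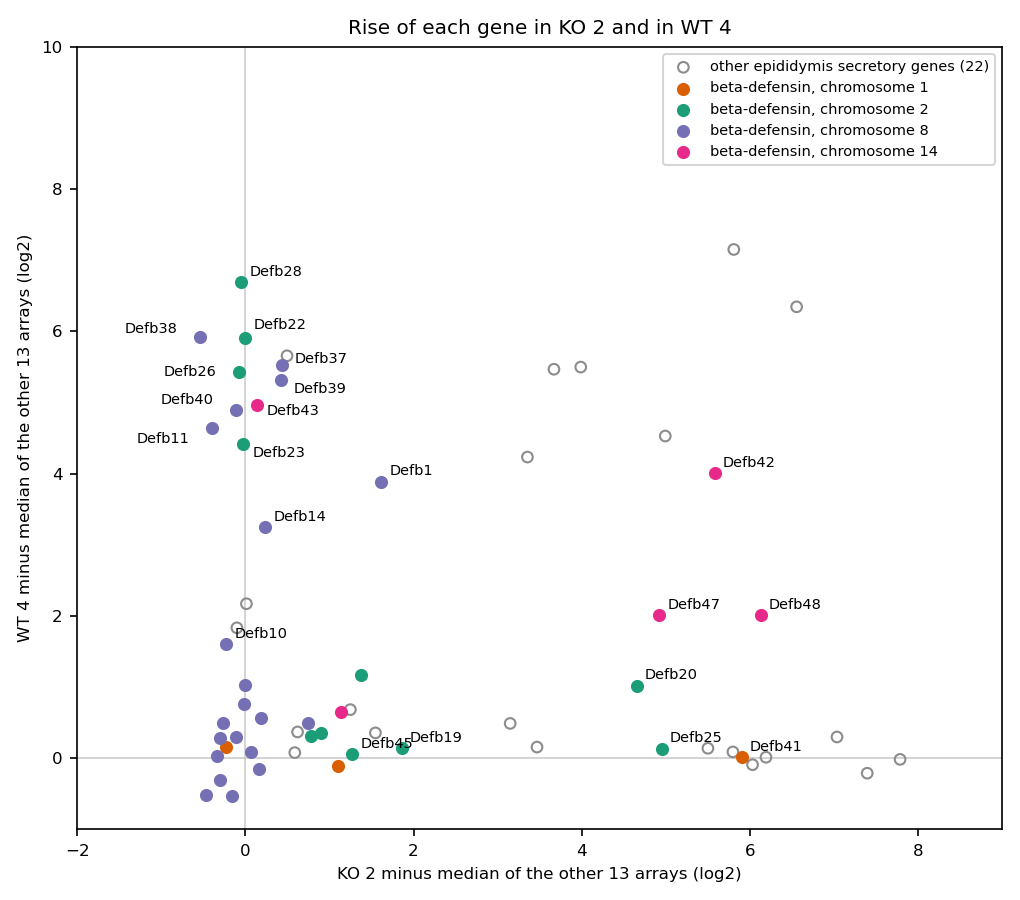
Value in Sfrp5 KO array 2 (x axis) and in wild-type array 4 (y axis), each minus the median of the other 13 arrays in log2 units, for the 40 beta-defensin genes (filled, coloured by chromosome) and 22 other epididymis secretory genes (open). Most members raised in 1 array lie near an axis, such as Defb28 at 6.69 on the y axis and Defb41 at 5.90 on the x axis. Defb20, raised in Sfrp5 KO array 2 alone, is at 4.65 on the x axis and 1.02 on the y axis. Defb42 lies off both, at 5.58 on the x axis.

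On chromosome 2 the members lie in the order Defb23, Defb20, Defb22, Defb26, Defb28, Defb29, Defb21, Defb19, Defb45, Defb36, Defb25, and those raised in wild-type array 4 alone are the first and the third to the fifth, whereas those raised in Sfrp5 KO array 2 alone are the second, the eighth, the ninth and the last. No member of chromosome 2 was raised in both, and 3 were raised in neither. On chromosome 8, 7 members were raised in wild-type array 4 alone, Defb1 in both, none in Sfrp5 KO array 2 alone and 13 in neither. On chromosome 14, 3 were raised in both, Defb43 in wild-type array 4 alone and Defb30 in neither, and on chromosome 1 Defb41 was raised in Sfrp5 KO array 2 and the other two members in neither. Of the other epididymis genes, 10 were raised in Sfrp5 KO array 2 alone, 4 in wild-type array 4 alone, 5 in both and 3 in neither.

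Among the 19 members raised in neither array, 12 were dim in all 15 arrays, and with Defb10 the count of members dim throughout was 13 of 40 (32.5%), against 35.4% of named genes. They were Defb44-ps and Defb18 on chromosome 1 and Defb4, Defb6, Defb5, Defb3, Defb8, Defb7, Defb33, Defb50, Defb10, Defb35 and Defb13 on chromosome 8. Defb4, an epithelial member induced by infection, read 3.76, 4.38 and 4.68 as the lowest, median and highest in wild type and 3.90, 4.10 and 4.32 in the knockout. Defb3, likewise inducible, read 4.95, 5.26 and 5.38 in wild type and 4.90, 5.11 and 5.33 in the knockout. The other dim members outside Defb10 stayed within 1 log2 unit of the highest of the 13 arrays in both high arrays. Neither Defb3 nor Defb4 stood out in wild-type array 4 or Sfrp5 KO array 2, and the 2 genotypes overlapped. A dim RMA value gives no measure of detection, which was not analysed here.

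The other 7 members raised in neither array, Defb30, Defb29, Defb21, Defb36, Defb34, Defb46 and Defb15, rose above the array median in at least 1 array. Over the 13 arrays the mean was 8.09 ± 0.20 (SD, n = 13) for Defb46, 7.63 ± 0.25 for Defb25, 7.20 ± 0.46 for Defb30, 7.09 ± 0.57 for Defb29 and 7.04 ± 0.19 for Defb45, each a level of its own probe set. Defb21 lay between 6.70 and 7.72 over the 15 arrays, Defb36 between 6.34 and 7.41, Defb34 between 6.42 and 7.08 and Defb15 between 5.91 and 7.52. Defb21 and Defb36 had their highest value in Sfrp5 KO array 2 and Defb34 in wild-type array 4. Defb46 read 7.88, 8.26 and 8.45 as the lowest, median and highest in wild type and 7.61, 7.98 and 8.26 in the knockout, and neither of the 2 arrays stood apart. Defb30 had its highest value in another mouse, Sfrp5 KO array 6, at 8.69, followed by 8.23 in Sfrp5 KO array 2 and 7.74 in wild-type array 4, with 6.90 to 7.20 in the remaining arrays. Sfrp5 KO array 6 held 4 members at least 1 log2 unit above the median of the 13 arrays, Defb30, Defb42 (6.97), Defb39 (6.22) and Defb15 (7.52), where 0.105% of named genes met that margin. Defb29 was high in 5 arrays, at 8.01 and 7.99 in wild-type arrays 4 and 7 and at 8.22, 8.30 and 7.84 in Sfrp5 KO arrays 2, 4 and 7, and it read 6.65 to 7.18 in the others. Defb36 was also highest in these 5 arrays, as seen after its values were known. It read 6.86 and 7.27 in wild-type arrays 4 and 7 and 7.41, 7.19 and 7.40 in Sfrp5 KO arrays 2, 4 and 7. In the others it read 6.34 to 6.66. The keratins Krt8 and Krt18, listed here with the mesothelial genes and made by simple epithelia, and the lipocalin Lcn2 were also highest in these 5 arrays, as seen after their values were known. Krt8 read 10.57 and 10.15 in wild-type arrays 4 and 7 and 10.72, 10.48 and 10.10 in Sfrp5 KO arrays 2, 4 and 7, against 7.54 to 8.95 in the others. Krt18 read 8.94, 8.39, 8.86, 8.42 and 7.73 in the same arrays, against 6.19 to 6.86, and Lcn2 read 9.16, 9.53, 11.78, 9.96 and 9.31, against 6.49 to 8.23. Cuzd1 of the epididymis list and Spata18 of the germ cell list were highest in the same arrays too, again seen afterwards. In the same order Cuzd1 read 12.54, 9.55, 10.74, 9.92 and 8.97, against 6.08 to 7.75. Spata18 read 7.68, 7.87, 8.53, 7.96 and 7.71, against 5.95 to 7.34. The mesothelial genes other than Krt8 and Krt18 were not highest in these 5 arrays. The part of any of these genes in the Defb29 and Defb36 values was not tested. By the same margin wild-type array 7 (1.05% of named genes), Sfrp5 KO array 4 (1.29%) and Sfrp5 KO array 7 (0.792%) each had Defb29 as the single member, and the remaining arrays outside the first 2 had none.

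**Figure D3:**
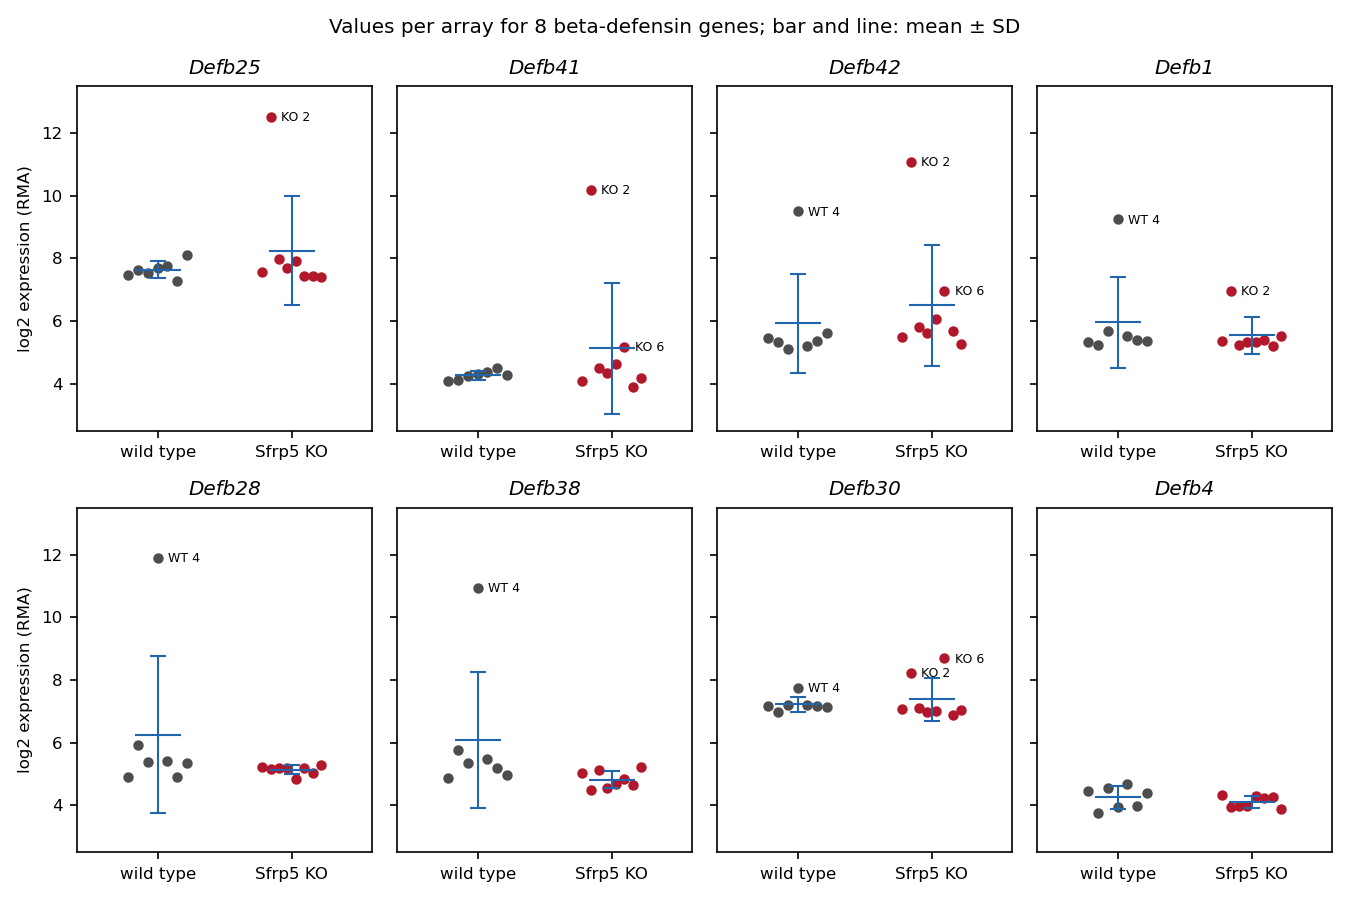
RMA log2 values per array of 8 beta-defensin genes in 7 wild-type (grey) and 8 Sfrp5 KO (red) mice, with the mean and SD of each genotype as a bar and line. Wide SDs come from the labelled arrays, such as wild-type array 4 at 11.89 for Defb28 and Sfrp5 KO array 2 at 12.51 for Defb25, and Defb4 has no such array.

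No beta-defensin differed between the genotypes past the threshold. In the limma fit over all 35557 probe sets, with Benjamini-Hochberg adjustment at 0.05, 0 of 40 members were called, against 0.0337% of probe sets, and the lowest adjusted p of a member was 0.294. At an unadjusted p below 0.05 there were 2 members, Defb44-ps and Defb46 against 9.97% of probe sets. The pseudogene Defb44-ps, at a dim level, averaged 4.46 ± 0.22 (SD) over 7 wild-type arrays and 4.19 ± 0.11 over 8 knockout arrays, so that its difference was -0.27 (SE 0.09; adjusted p = 0.294 in limma). Defb46 read 8.23 ± 0.17 and 7.99 ± 0.20, a difference of -0.24 (SE 0.10; limma adjusted p = 0.396). The next lowest p-values were those of Defb33 (-0.18), Defb34 (-0.17) and Defb13 (-0.21). The ranges of the 2 genotypes overlapped for every one of the 40 members, where 0.11% of named genes had ranges apart.

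The sign of the difference followed the arrays in which a member was raised. Of the 12 members raised in wild-type array 4 alone, 12 had a lower mean in the knockout, with differences from -1.26 to -0.25 and SEs of 0.23 to 0.81. Without wild-type array 4 and Sfrp5 KO array 2 the same differences ran from -0.40 to 0.05, with SEs of 0.08 to 0.21. Of the 5 members raised in Sfrp5 KO array 2 alone, 5 had a higher mean in the knockout, from 0.05 to 0.86, and from -0.12 to 0.17 without the 2 arrays. Since these classes are defined by 1 array of 1 genotype, the direction follows from the choice of members. Defb38 averaged 6.08 ± 2.16 (SD) over 7 wild-type arrays and 4.82 ± 0.28 over 8 knockout arrays, a difference of -1.26 (SE 0.70; limma adjusted p = 0.594), which was -0.45 without wild-type array 4 alone and -0.40 without both arrays. Defb41 differed by 0.86 (SE 0.72; limma adjusted p = 0.771), and by 0.14 without Sfrp5 KO array 2. For Defb42, high in one array of each genotype, the difference of 0.56 (SE 0.84) became 1.15 without wild-type array 4, -0.09 without Sfrp5 KO array 2 and 0.50 without both.

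**Figure D4:**
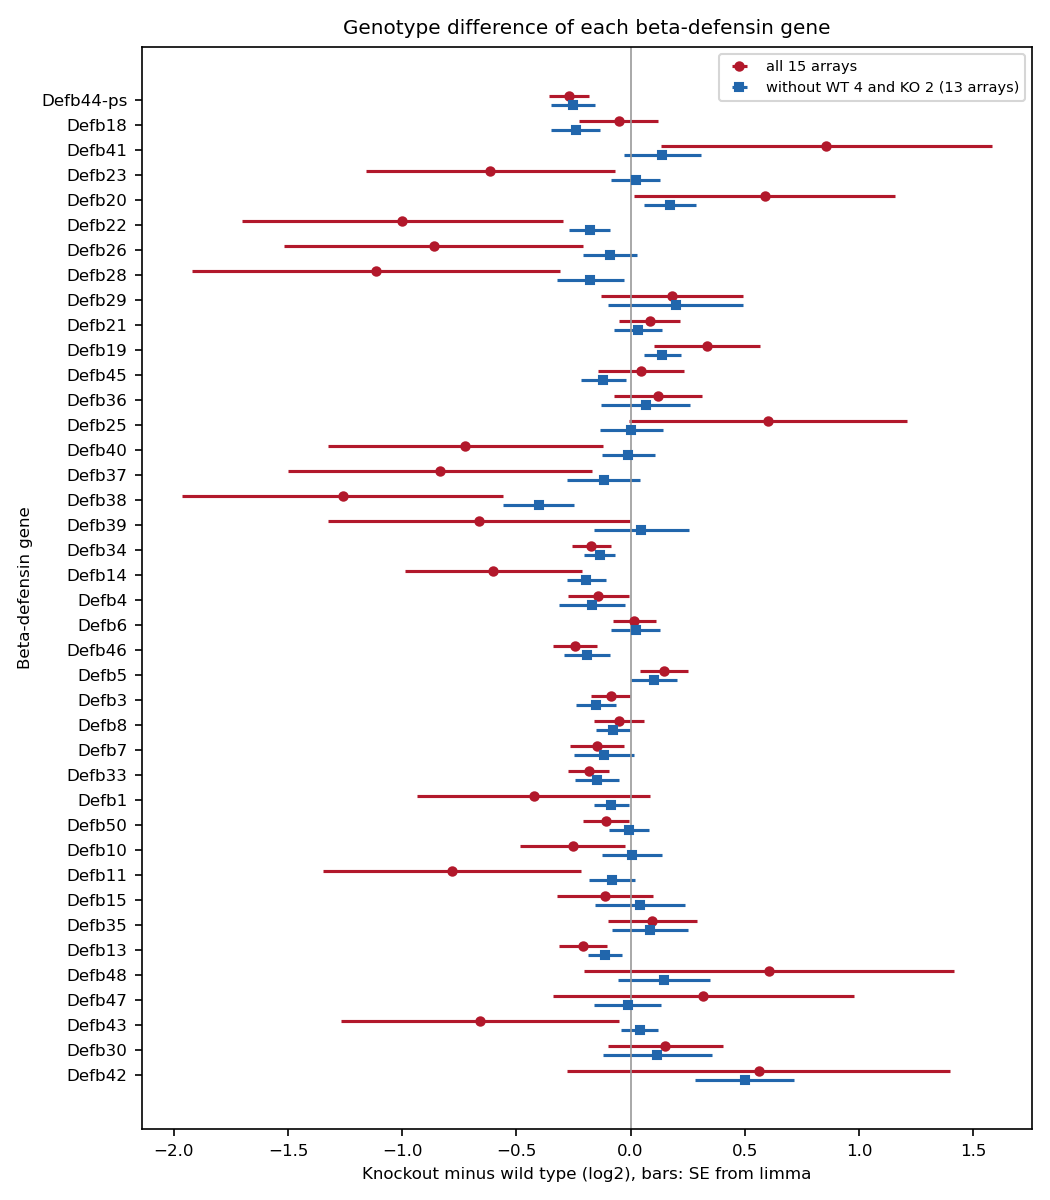
Log2 difference, Sfrp5 KO minus wild type, of each of the 40 beta-defensin genes with its limma SE, from all 15 arrays and from the 13 arrays without wild-type array 4 and Sfrp5 KO array 2. With all arrays the differences span -1.26 to 0.86, and without the 2 arrays those of the members raised in 1 array draw in to between -0.40 and 0.17.

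Over the family, 15 members were higher and 25 lower in the knockout (62.5% lower, against 55.2% of named genes), with a median difference of -0.13 against -0.01 over all named genes. Without the 2 arrays 18 were higher and 22 lower, the median was -0.01 for members and -0.01 for all named genes, and 7 members changed sign. That fit called 0 of 40 members and 0.0% of probe sets, with 5 members and 8.33% of probe sets at an unadjusted p below 0.05 in limma and a lowest adjusted p of 0.513 among members. The typical spread of a member over the 13 arrays was an SD of 0.22, against 0.16 over all named genes.

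Relatives, proposed receptors, other antimicrobial genes and markers of tissues and cell types were taken from lists. None of these lists had a gene past limma's adjusted threshold. In the epididymis list, 15 of 22 genes were raised in Sfrp5 KO array 2 and 9 in wild-type array 4. Cst12, a cystatin (12.19 in Sfrp5 KO array 2), Gpx5, a secreted glutathione peroxidase (12.54), and Adam28 (11.85) had the largest margins of the list over the highest of the 13 arrays in Sfrp5 KO array 2, and their values in wild-type array 4 were 4.39, 4.93 and 5.73. The lowest p-values in that list were those of Lcn10 (log2 difference 0.32), Lcn9 (1.08) and Pate4 (-0.35). The beta-defensin-like gene Spag11b read 11.63 in Sfrp5 KO array 2 and 5.40 in wild-type array 4 (log2 difference 0.77), whereas Spag11a read 7.72 and 7.73 (-0.04). The 2 measured alpha-defensins, Defa24 (-0.23) and Defa39 (-0.00), of a family known from the gut, were dim in all arrays and raised in neither.

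Of 17 other antimicrobial peptides and proteins, 2 were raised in Sfrp5 KO array 2, Lcn2 and Bpi, and 1 in wild-type array 4, Ltf. The lowest p-values in that list were those of the protease inhibitors Wfdc2 (0.39) and Slpi (0.41) and of Ngp (-0.16). None of 7 proposed beta-defensin receptors was raised in either array, and 4 were higher and 3 lower in the knockout. The 3 named by lowest p were Tlr4 (0.10), Mc4r (-0.08) and Tlr2 (-0.06). Of 11 macrophage and neutrophil genes 5 were higher and 6 lower in the knockout, and none was raised. The 3 named by lowest p were Mpo (-0.16), Ngp (-0.16) and Cd14 (0.15). The mean of 14 testis germ cell genes was 8.78 in Sfrp5 KO array 2, 8.71 in Sfrp5 KO array 3, 8.00 in wild-type array 4, 7.71 in wild-type array 2 and 7.58 in wild-type array 6, against 6.25 to 7.07 in the others. Sfrp5 KO array 3 and wild-type arrays 2 and 6 had no beta-defensin 1 log2 unit above the median of the 13 arrays. The lowest p-values of the germ cell list were those of Tssk6 (-0.15), Sycp3 (0.19) and Ddx4 (0.39).

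Of 8 seminal vesicle genes 7 were dim in all arrays and Spinkl was raised in wild-type array 4, with differences of 0.16 for Svs2, 0.15 for Svs5 and -0.09 for Svs1. All 9 mesothelial genes were higher in the knockout, with Upk1b at 0.54, Muc16 at 0.65 and Krt19 at 0.66, and none met the margin of 1 log2 unit above the highest of the 13 arrays. Their mean was 8.40 in wild-type array 4 and 8.52 in Sfrp5 KO array 2, within the 7.25 to 8.66 of the other 13, but Krt8 lay 2.14 and 2.29 log2 units and Krt18 2.20 and 2.12 above their medians over the 13 in these 2 arrays. Of 11 adipocyte genes 8 were higher, with Adipoq at 0.17, Cd36 at 0.08 and Plin1 at 0.16. The part of epididymal and germ cell RNA in the beta-defensin values was not tested.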

How the data were processed

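Gene expression in gonadal white adipose tissue was measured on 15 arrays, 1 per mouse, grouped by the genotype in the labels. The values are log2 expression per probe set (35557), deposited by the authors after RMA, per the submitters' processing notes. RMA subtracts background, equalises the distributions of arrays and gives each probe set 1 value, which takes out any change shared by most genes. Other tools listed there without a stated role are Affymetrix Expression Console 1.1.2800.19935, affy 1.18 and limma. No genome build for the probe sets is given in the sources used here, so RefSeq (GRCm38.p6) was used for gene order and promoter sequence alone. The array descriptions number the wild-type arrays before the knockout arrays, and a processing order of that kind cannot be told apart from genotype. Scanner files were not used here, and the number of arrays limits the precision.

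Names came from the platform annotation, which gave 1 symbol for 21789, several for 1621 and none for 12147. The brightest probe set over the arrays stood for a gene. All 40 member symbols were current in RefSeq, and 1 probe set with several symbols, among them a Defb, was not used.

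The genotypes were compared by a two-sided limma fit (version 3.58.1, R 4.3.3; lmFit, then eBayes) without covariates or filter, with Benjamini-Hochberg adjustment over all probe sets at 0.05. The code of the fit was run on simulated data with independent normal noise of the same SD for every probe set. That run does not cover genes with a single extreme array, as the raised members have. Raised means at least 1 log2 unit above the highest of the 13 arrays other than wild-type 4 and Sfrp5 KO 2. The members, lists, rules and these 2 arrays were chosen with earlier results of these data known. Named were all raised members, the 5 members with the lowest p, the 5 brightest outside the 2 arrays, Defb1, Defb3, Defb4 and Defb14, Sfrp5, the 3 lowest-p genes of each list and the 3 epididymis genes with the largest rise in Sfrp5 KO array 2. Other members are named where a class or count of the report holds them. Krt8, Krt18, Lcn2, Cuzd1, Spata18, Bpi, Ltf and Spinkl were named after their values were seen. The lists were epididymis secretory, testis germ cell, seminal vesicle, adipocyte, mesothelial, and macrophage and neutrophil genes, beta-defensin relatives, alpha-defensins, receptors and other antimicrobial genes. Alternatives were another normalization, a filter on dim probe sets, other variance models, other margins, omission of arrays and a block on the replicate number. Plots were made in Python 3.11.15 (matplotlib 3.10.9).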

Additional observations from a re-analysis of the deposited data

Results flagged for a closer look

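An array was singled out where its gap to the nearest other array of its genotype, divided by the range of the genotype, passed Dixon's limit. Of 80 pairs of a beta-defensin gene and a genotype, 34 held such an array, 11 in Sfrp5 KO array 2, 19 in wild-type array 4 and 4 elsewhere. The limit is one that about 1 in 20 would pass by chance if values were independent and normal. The share of all named genes that pass it in these arrays was not counted. Because these 2 arrays were chosen with their high values known, the count is a description and not a test against chance. Genes that vary together are also not independent.

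Sfrp5 KO array 2 was the highest of the knockout arrays, by this measure, for 11 members, namely Defb1 (6.98), Defb18 (5.29), Defb19 (7.83), Defb20 (11.59), Defb25 (12.51), Defb35 (6.53), Defb41 (10.19), Defb42 (11.08), Defb45 (8.36), Defb47 (11.44) and Defb48 (11.39). Wild-type array 4 was the highest of the wild-type arrays for 18 members, namely Defb1 (9.25), Defb10 (5.12), Defb11 (9.57), Defb14 (7.61), Defb15 (7.41), Defb22 (10.84), Defb23 (10.67), Defb26 (10.69), Defb28 (11.89), Defb30 (7.74), Defb37 (10.43), Defb38 (10.94), Defb39 (10.37), Defb40 (8.60), Defb42 (9.50), Defb43 (11.47), Defb47 (8.53) and Defb48 (7.27), and the lowest for Defb8 (4.39). Elsewhere, Sfrp5 KO array 6 was the highest knockout array for Defb15 (7.52) and Defb23 (6.67). Wild-type array 6 was the lowest wild-type array for Defb45 (6.91) and Defb46 (7.88).

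Among the other named genes, with 19 such arrays, Sfrp5 KO array 2 was the highest knockout array for Spag11b (11.63), Gpx5 (12.54), Lcn9 (12.23), Lcn10 (7.52), Cst12 (12.19), Adam28 (11.85) and Svs5 (6.39), and wild-type array 4 the highest wild-type array for Spag11a (7.73), Pate4 (6.90) and Mpo (6.42). A highest value also stood apart for Defa24 in Sfrp5 KO array 1 (3.28), Lcn9 in wild-type array 7 (6.88), Mpo in Sfrp5 KO array 1 (6.28), Upk1b in wild-type array 5 (9.84) and Muc16 in wild-type array 5 (9.01). A lowest value stood apart for Plin1 in wild-type array 7 (10.16), Pate4 in Sfrp5 KO array 5 (4.55), Svs2 in wild-type array 1 (4.58) and Tssk6 in Sfrp5 KO array 7 (4.87).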

How the results depend on the processing

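Limma called 0 of 40 members under every alternative run for that count: quantile normalization, median centring, dim probe sets left out (which kept 13 of 40 members), an intensity trend with a robust prior, array weights, a replicate block, each array left out in turn, both high arrays left out, probe sets averaged and a threshold of 0.1. Unadjusted p was below 0.05 for 1 to 5 members under the alternatives other than a single array left out. Over 640 fits of named members, adjusted p ran from 0.195 to 0.999, 624 kept the sign of the difference and 16 reversed it. Without wild-type array 4 and Sfrp5 KO array 2 together, the difference was 0.0059 for Defb10, 0.023 for Defb23, 0.048 for Defb39, 0.039 for Defb43, -0.12 for Defb45 and -0.012 for Defb47. With 1 array left out at a time, it ran from -0.63 to 0.12 for Defb1, -0.75 to 0.019 for Defb23, -0.0063 to 0.72 for Defb25, -0.034 to 0.24 for Defb30, -0.83 to 0.082 for Defb39, -0.093 to 1.15 for Defb42, -0.81 to 0.055 for Defb43, -0.12 to 0.12 for Defb45, -0.29 to 0.60 for Defb47 and -0.16 to 0.91 for Defb48. The reversals came without wild-type array 4 (Defb1, Defb23, Defb39, Defb43), Sfrp5 KO array 2 (Defb25, Defb42, Defb45, Defb47, Defb48) or Sfrp5 KO array 6 (Defb30). The median member difference of -0.13 became 0.08 over the 13 members that the filter on dim probe sets kept. Members raised in Sfrp5 KO array 2 were 6 to 12 and in wild-type array 4 were 13 to 19, over other margins and normalizations. The 12 and 19 lay 1 log2 unit over the median of the 13 arrays, met by 2.70% and 1.72% of named genes. Members dim in all arrays were 9 at the 25th percentile, 21 at the 75th, and 31 without the 2 arrays. Shares of named genes were not counted for the other alternatives in these counts. The Sfrp5 difference was -1.17 (limma adjusted p = 0.119) without the 2 arrays and ran from -1.29 to -1.13 with 1 array left out, where 7 fits missed the threshold (wild-type arrays 2, 3, 4 and 5, Sfrp5 KO arrays 2, 5 and 8).

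In limma with a replicate block 0 probe sets passed (3098 at an unadjusted p below 0.05), the Sfrp5 difference was -1.28 (adjusted p = 0.3001) and the median member difference -0.11. Same-numbered arrays correlated from -0.12 to 0.25 over 7 pairs, with 3 over 0.1, and 0 wild-type arrays correlated best with their own number, so the numbers were not taken to pair the mice.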

Other observations

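Sfrp5 KO array 6 had 21 named genes at least 1 log2 unit above the median of the 13 arrays, and 4 of them were beta-defensins. The gene with the largest margin there was Pate13, at 8.19 against a median of 4.05, followed by Spink11 (7.75 against 3.78), Rnase9 (8.43 against 4.68) and Lcn5 (9.36 against 6.17). Rnase9 and Lcn5 are secretory genes of the epididymis. Pate13 read 5.22 in Sfrp5 KO array 2 and 5.42 in wild-type array 4, and Lcn5 read 6.75 and 6.24. Spink11 read 3.91 and 5.56. Rnase9 read 5.17 in Sfrp5 KO array 2 and 10.33 in wild-type array 4. The array and these genes were chosen after their values were seen, and no test was made.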
